A study of Mus musculus with 4 samples.

Results

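The cells described here are macrophages of injured muscle that held transcripts of *Lyve1*, a hyaluronan receptor, or *Cd163*, the scavenger receptor for hemoglobin bound to haptoglobin. They were sought in both single-cell libraries taken 2 days after injury (dpi2). A barcode was a member when it held at least 500 genes and under 10% mitochondrial UMIs (unique molecular identifiers, each a counted transcript molecule), *Lyve1* and *Cd163* UMIs summing to 2 or more, at least 1 UMI of the mannose receptor gene *Mrc1*, 3 or more UMIs of the complement C1q genes *C1qa*, *C1qb* and *C1qc* per 10000, fewer than 100 UMIs of *S100a8* and *S100a9* per 10000, and not UMIs of both *Mki67* and *Top2a*, a pair of genes of dividing cells. This gave 222 cells, 87 in the control library and 135 in the library labelled KO, of 9809 dpi2 barcodes that passed the limits on genes and mitochondrial UMIs, 10779 dpi2 barcodes in all and 20500 in the series.

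The study asked how loss of the heme-responsive transcriptional repressor *Bach1* in myeloid cells alters macrophages during muscle repair. Male mice of 8 to 12 weeks on a C57BL/6J background received cardiotoxin, a venom toxin that kills muscle fibres, in the tibialis anterior, and CD45+ cells were enriched with magnetic beads and loaded on a 10x Genomics droplet instrument at dpi2 or dpi4. By the study's methods the control mice carried the floxed allele without Cre (*Bach1* fl/fl), and the KO mice were *Bach1* fl/fl with Lyz2-Cre, in which the *Lyz2* promoter drives Cre in myeloid cells of several kinds. There were 4 libraries, 1 per group, so no value below has a replicate, none comes with a p-value, and a difference between genotypes cannot be told apart from a difference between animals or library preparations.

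Macrophages with *Lyve1*, *Cd163* and *Mrc1* are known from healthy muscle and other tissues, where they sit along vessels and in connective tissue, take up debris, plasma proteins and iron, and are renewed to differing degrees by blood monocytes. After injury monocytes with *Ly6c2* enter in large numbers and turn into macrophages that clear dead fibres, so that resident and recruited cells lie side by side. BACH1 holds back genes for heme breakdown, iron export and glutathione synthesis until heme binds it and it is degraded.

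For each gene the UMIs of all cells in a group were added up and given per 1000000 UMIs of the group (CPM). Intervals are at 95%, exact, from the counts alone, and cover counting error only, not differences between mice. Genes were scored by 1 size rule: at least 2-fold apart, an interval that leaves out 1, and at least 50 UMIs in the pair. Members were set beside the comparison macrophages, 2208 control barcodes and 1019 barcodes labelled KO that passed the same limits on genes, mitochondrial UMIs, C1q, *S100a8* with *S100a9* and cycling but were not members. Since the rule used UMIs of these same cells, differences between members and comparison macrophages describe the choice and were not tested.

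The limit of 2 UMIs cut through a falling number of cells. Of the control C1q macrophages with an *Mrc1* UMI, 1256 held no *Lyve1* or *Cd163* UMI and 113 held 1, and just inside the limit 22 held 2, 34 held 3 to 9 and 31 held 10 or more. In the library labelled KO the numbers were 675 and 112 outside and 24, 59 and 52 inside. Below 30 UMIs, 2 was thus the most frequent number among the members of either library, and the plot of cells by UMIs shows no gap at the limit. Members were also deep cells: their median was 22409 UMIs in the control library and 31634 in the library labelled KO, beside 14415 and 20778 in the comparison macrophages, and they held a median of 4679 and 5314 genes. A deeper cell is more likely to reach 2 UMIs. When barcodes were first thinned to 5000 UMIs, 1604 control barcodes and 1648 labelled KO that held fewer were left out. Of those kept, 57 of 4955 control cells, 1.15%, and 63 of 2488 labelled KO, 2.53%, met the rule. The dpi2 libraries shared 14 barcodes, none of them a member in either.

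**Figure D1:**
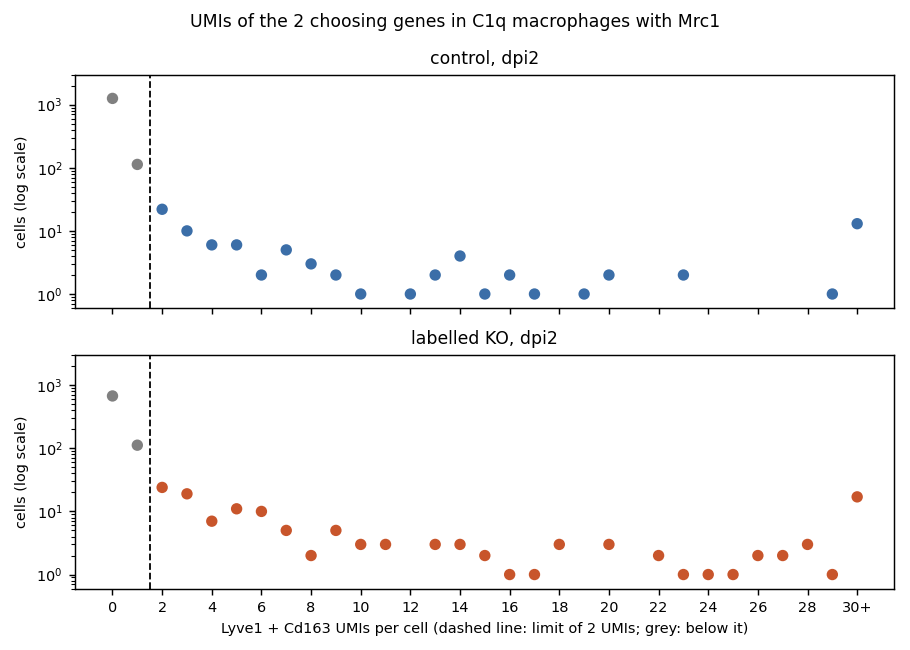
Number of C1q macrophages with an *Mrc1* UMI (vertical axis, cells, log scale) by their *Lyve1* and *Cd163* UMIs (horizontal axis, UMIs per cell, last point 30 or more) in both dpi2 libraries; the dashed line is the limit of 2 and grey points are outside it. Counts fall from 1256 and 675 cells at 0 UMIs to 22 and 24 at 2 UMIs without a break.

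*Lyve1* itself was in a minority of members. It had 323 CPM (299 to 348) in control members and 137 CPM (126 to 149) in members labelled KO, and was found in 43.7% and 23.0% of the cells. *Cd163* had 265 CPM (243 to 288) and 410 CPM (391 to 430), in 86.2% and 94.8% of cells. *Mrc1* had 2401 and 2426 CPM. By category, 12 control members held *Lyve1* alone, 49 *Cd163* alone and 26 both, against 7, 104 and 24 members labelled KO, so most members were chosen through *Cd163*. Thinned to 5000 UMIs, *Lyve1* was found in 29.9% of 87 control members (20.5 to 40.6) and 13.4% of 134 labelled KO (8.16 to 20.4). Neither gene had a UMI in the 73 and 24 barcodes with T or NK cell markers, which allows a share of cells with a UMI of up to 4.11% and 12.5%. At the median depths of 3950 and 5634 UMIs of these barcodes this sets no limit on the share of cells that hold the transcript. *Mrc1* was found in 8.22% and 16.7% of those barcodes. In comparison macrophages *Lyve1* was found in 0.861% and 0.785% and *Cd163* in 4.89% and 11.0% of cells.

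Other macrophage genes were found in most members, and so were UMIs of monocyte genes. *Dab2*, an adaptor for endocytosis, was in 100% of members of both libraries. The folate receptor gene *Folr2* was in 97.7% and 88.1%, and *Gja1*, the gap junction protein connexin 43, in 52.9% and 72.6%, against 9.96% and 24.5% of comparison macrophages. The 6 general macrophage markers *Apoe*, *Mertk*, *Csf1r*, *Adgre1*, *Fcgr1* and *Cd68* were lower in members than in comparison macrophages. They summed to 4785 and 7081 CPM in members, against 7144 and 8549 CPM. *Timd4*, a phosphatidylserine receptor of long-lived resident macrophages, had 4 UMIs in the control members and 1 in those labelled KO. *Ccr2*, the receptor that draws monocytes out of the marrow, was in 74.7% and 71.9% of members, close to its 70.2% and 69.3% in comparison macrophages, but it was also in 91.8% and 75% of the T or NK marker barcodes, so that it does not set the members apart. *Ly6c2* was in 57.5% and 31.1% of members. UMIs of all of the monocyte genes *Ly6c2*, *Vcan* and *Chil3* were missing in 4 control members and 15 labelled KO, and *Ly6c2* and *Plac8* in 8 and 48. The 6 monocyte markers summed to 1402 and 1115 CPM in the members and to 1268 and 693 CPM in the T or NK marker barcodes, of which *Ccr2* made up 724 and 411 CPM. *Ly6c2* was at 17.9 CPM in the control ones and at 0 in those labelled KO, beside 143 and 68.1 CPM in members, but those barcodes had been limited to fewer than 2 UMIs of *Ly6c2*, *Vcan* and *Chil3*. Whether monocyte UMIs in a member were its own, free RNA or those of a second cell was not tested, and the cells are called by their genes here, *Lyve1*/*Cd163* macrophages.

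Markers of other cells were low in the members. The T and NK markers *Cd3d*, *Cd3e*, *Cd3g*, *Ncr1*, *Klrb1c* and *Nkg7* were at 0 in both libraries, and 40 of the 41 T or NK marker UMIs of the control members were *Klrd1* UMIs of 1 cell. Of the lymphatic endothelial markers, a cell type that also carries *Lyve1*, *Flt4*, *Ccl21a* and *Mmrn1* were at 0 in both libraries and the summed 138 and 195 CPM were nearly all *Pdpn*, which macrophages also make. Dendritic cell markers summed to 6.81 and 6.21 CPM, B cell markers to 9.25 and 5.52, blood endothelial markers to 7.30 and 5.98, fibroblast markers to 6.81 and 6.21, and muscle markers to 8.76 and 9.66. The neutrophil list moved with the library label: its 7 genes summed to 130 CPM in control members, with *G0s2* and *Retnlg* at 0, and to 241 CPM in members labelled KO, with none at 0. In T or NK marker barcodes they summed to 35.7 CPM (18.5 to 62.4) and 245 CPM (170 to 343), so that the members labelled KO were at the level of these barcodes. *S100a8* and *S100a9* are on this list and were limited by the rule in members. The same limit held for the comparison macrophages and the T or NK marker barcodes, so it bounds all of these sums. Members with 2 or more neutrophil UMIs made up 32.2% and 82.2%, beside 34.8% and 76.4% of comparison macrophages.

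Beyond the genes that chose them, the members stood above the comparison macrophages in genes of resident macrophages. Of 38 such genes listed outside the rule, 31 had at least 50 UMIs, and 18 of these passed the size rule upward in both libraries and none downward. Over all 9918 genes that had at least 50 UMIs in both libraries, 127 were higher in both, 1.28%, and 141 lower in both, 1.42%. The list's median log2 ratio was 1.27 in the control library and 1.16 in the library labelled KO, against 0.13 and 0.08 over all genes. The list and the rule draw on the same knowledge of these cells, so this is a description of what the rule brought along.

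Among the genes for uptake, *Fcgrt*, the receptor that recycles albumin and antibody, had 158 CPM in control members and 18.5 CPM in control comparison macrophages, 8.50-fold (7.42 to 9.72), and 188 against 43.0 CPM in the library labelled KO, 4.37-fold (3.97 to 4.79). *Dab2* had 2137 and 2015 CPM in members against 645 and 774 CPM, 3.31-fold and 2.60-fold. *Stab1*, a scavenger receptor, had 1049 and 1212 CPM against 355 and 532 CPM, 2.96-fold and 2.28-fold. *Folr2* was 2.43-fold and 2.50-fold higher. Each of these genes was thus higher in members in either library, by a larger factor in the control library for all but *Folr2*. Of 30 listed genes for endocytosis, scavenging and dead cell uptake 7 passed the size rule upward in both libraries, *Stab1*, *Dab2*, *Colec12*, *Gas6*, *Clec10a*, *Fcgrt* and *Siglec1*, and *Axl*, a receptor for the ligand GAS6, passed it downward, against 1.28% and 1.42% of all genes.

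Secreted factors were among the members' highest genes by ratio. *Igfbp4*, which binds insulin-like growth factors, led them with 319 and 379 CPM in members against 26.1 and 55.1 CPM in comparison macrophages, 12.2-fold (11.1 to 13.5) and 6.87-fold (6.38 to 7.40). *Gas6*, a bridge between dead cells and their receptors, had 391 and 432 CPM against 86.3 and 119 CPM, 4.53-fold and 3.64-fold. *Ccl8*, a monocyte attractant, had 1140 and 611 CPM against 224 and 141 CPM, 5.09-fold and 4.33-fold, but a single cell held 10.6% and 9.94% of its UMIs. The related *Ccl12* was 2.63-fold and 2.35-fold higher. *Ccl24*, an eosinophil attractant, was 4.45-fold and 2.22-fold higher, but a single cell held 43.2% and 9.26% of its UMIs in members. Of the 26 listed chemokines and receptors, *Ccl8*, *Ccl12* and *Ccl24* were the 3 past the size rule upward in both libraries. *Ccl5*, *Cxcl14* and *Cxcr4* passed it downward, again against 1.28% and 1.42% of all genes.

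The other genes ranked at the top by ratio were *Npl*, *Rcn3*, *Nid2*, *Gja1*, *Ednrb* and *Etv1*. *Npl*, which breaks down sialic acid, had 158 and 157 CPM in members against 26.5 and 26.4 CPM, 5.98-fold and 5.93-fold. *Gja1* had 76.9 and 180 CPM against 13.7 and 36.9 CPM, 5.63-fold (4.67 to 6.75) and 4.88-fold (4.43 to 5.39). *Ednrb*, an endothelin receptor, had 164 and 456 CPM against 14.5 and 127 CPM, 11.3-fold and 3.59-fold. *Rcn3*, a calcium-binding protein of the endoplasmic reticulum, and *Nid2*, a basement membrane protein, were rare: 39 and 79 UMIs of *Rcn3* and 22 and 59 of *Nid2* in all members. *Etv1*, a transcription factor, was 5.79-fold and 3.71-fold higher. Of 28 listed transcription factors none passed the size rule upward in both libraries, beside 1.28% of all genes. *Maf*, a regulator of resident macrophages, was 2.25-fold and 1.75-fold higher in members, while *Nr1h3*, *Bhlhe40*, *Bhlhe41* and *Runx3* passed it downward, against 1.42% of all genes.

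**Figure D2:**
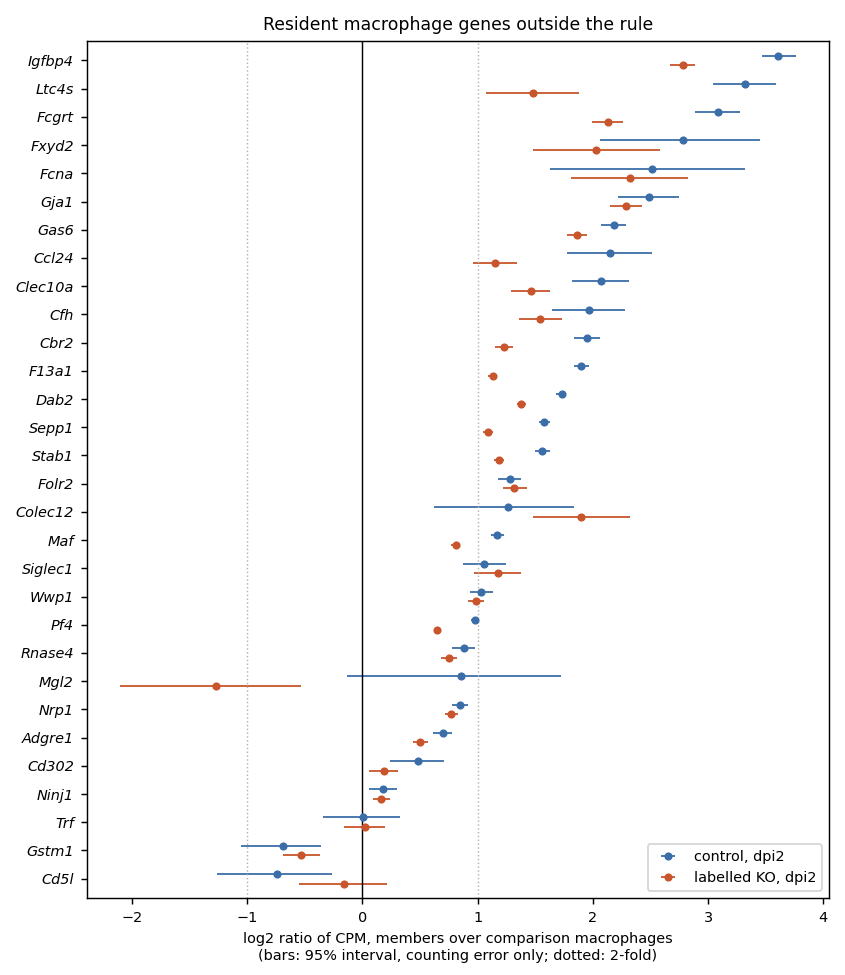
Log2 ratio of members over comparison macrophages (horizontal axis) for genes of the resident list with at least 50 UMIs, in the control library and in the library labelled KO; bars are 95% counting intervals and dotted lines mark 2-fold. *Igfbp4*, *Fcgrt* and *Gja1* lie far to the right in both libraries, and *Maf* lies near the 2-fold line, at 2.25-fold and 1.75-fold.

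Some genes of recruited and lipid-handling injury macrophages were lower in members. *Spp1*, the matrix protein osteopontin, had 3101 and 4114 CPM in members against 11311 and 7323 CPM in comparison macrophages, 0.274-fold and 0.562-fold. *Gpnmb*, a membrane glycoprotein of lipid-laden macrophages, was at 0.181-fold and 0.454-fold, and *Fabp5*, a fatty acid carrier, at 0.265-fold and 0.467-fold. *Cd9*, a tetraspanin, was at 0.288-fold and 0.304-fold. Of 20 injury genes 6 passed the size rule downward in both libraries and none upward, against 1.42% and 1.28% of all genes, with medians of -1.01 and -0.58. Of 15 monocyte genes 5 passed it downward, against the same 1.42%, among them *Ly6c2* and *Thbs1*, with medians of -1.86 and -0.96. *Ly6c2* had 143 and 68.1 CPM in members against 685 and 197 CPM. The other genes ranked lowest were *Il7r*, the interleukin 7 receptor, at 0.154-fold and 0.226-fold, the acid phosphatase gene *Acp5* at 0.209-fold and 0.279-fold, the coagulation factor gene *F7* at 0.104-fold and 0.274-fold, the stress cytokine gene *Gdf15* at 0.218-fold and 0.339-fold, and *Bhlhe40* at 0.0735-fold and 0.317-fold. The rule also named *Gzma*, *Cd200* and *Ifit1bl1*, each with 0 to 6 UMIs in the members of a library.

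Cell cycle genes were higher in members, most widely in the control library, although cells with UMIs of both *Mki67* and *Top2a* had been left out. Of 16 such genes outside the rule 14 had at least 50 UMIs in the control library, and 13 of these passed the size rule upward there, the mitotic genes *Ccna2*, *Ccnb1*, *Cdk1*, *Birc5* and *Ube2c* among them, against 4.61% of all genes in that library alone. In the library labelled KO *Mcm2*, *Mcm5* and *Ccnb2* did, of 9, and none passed it downward, against 1.97% and 2.54%. These 3 were the ones past it in both libraries, against 1.28% of all genes, and the list medians were 1.95 and 0.90. *Mcm2*, part of the helicase that opens DNA before replication, had 73.5 and 35.9 CPM in members against 19.1 and 14.4 CPM, 3.86-fold and 2.48-fold. *Mcm5* had 64.2 and 36.8 CPM against 15.1 and 11.9 CPM, 4.24-fold and 3.10-fold. Depth differed in the same direction between these groups, as given above, and its part in this was not tested.

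Within the C1q macrophages with *Mrc1*, some of these genes were also followed over the number of *Lyve1* and *Cd163* UMIs. *Fcgrt* had 18.4 CPM in control cells with 0 such UMIs, 58.3 CPM with 1, 96.4 CPM with 2, 92.2 CPM with 3 to 9 and 278 CPM with 10 or more. In the library labelled KO it had 42.2, 72.3, 99.3, 119 and 285 CPM in the same order. For this gene cells just outside the limit thus lay between those with none and those just inside. Not every gene went evenly: *Ccl8* labelled KO was at 111, 413, 152, 566 and 812 CPM, and *Gja1* in the control library at 15.7, 46.4, 32.7, 89.7 and 96.8 CPM. *Spp1* went the other way, at 10394, 7798, 4853, 3980 and 773 CPM in the control library and 7323, 6687, 4685, 5009 and 3041 CPM in the library labelled KO. *Il1b*, the cytokine interleukin 1 beta, had 361 CPM in the lowest and 28 CPM in the highest control band, and 1173 and 382 CPM in the library labelled KO, though with 1175 CPM at 2 UMIs in between. *Ltc4s*, the enzyme that makes leukotriene C4, stood out in the top control band, at 174 CPM against 36.6 CPM with 3 to 9 UMIs, and the top band labelled KO had 26.7 CPM. Depth differed between these bands as well, though not evenly: the median was 16014, 19851, 23438, 20303 and 22409 UMIs in the control library and 23396, 26698, 23948, 30135 and 34544 UMIs in the library labelled KO.

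**Figure D3:**
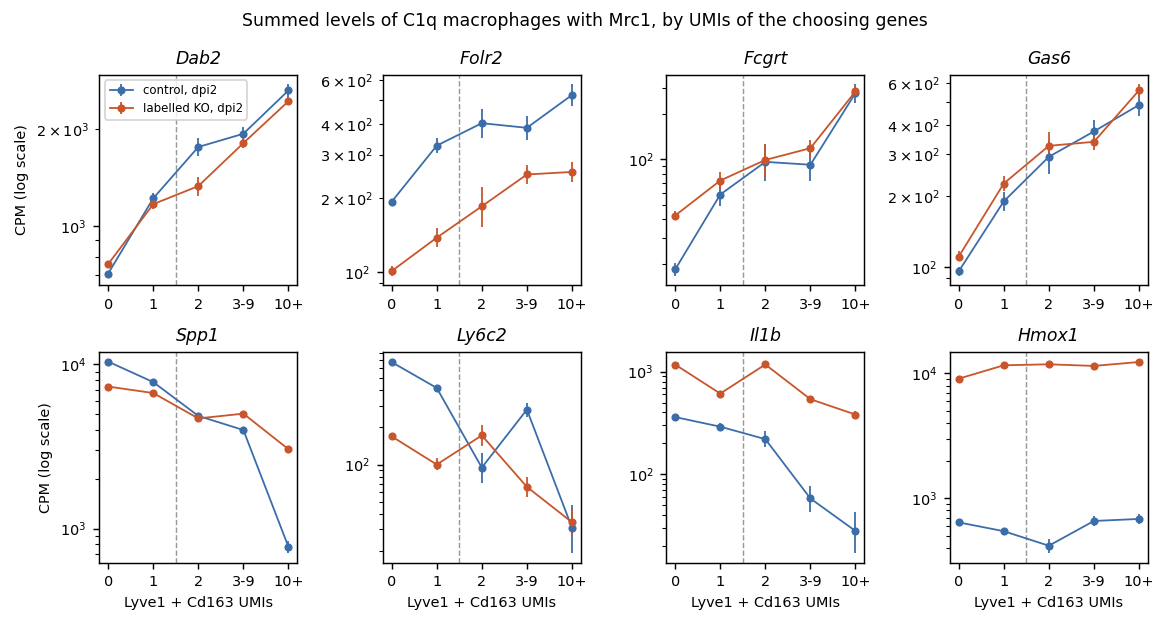
Level (vertical axis, CPM of summed UMIs, log scale) of 8 genes in C1q macrophages with *Mrc1*, grouped by their *Lyve1* and *Cd163* UMIs (horizontal axis: 0, 1, 2, 3 to 9, 10 or more), in both dpi2 libraries. *Dab2*, *Folr2*, *Fcgrt* and *Gas6* are higher and *Spp1* lower at 10 or more UMIs than at 0 in both libraries, while *Hmox1* is between 416 and 682 CPM over the control bands and between 9074 and 12347 CPM over those labelled KO.

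Members were a larger share of the library labelled KO at dpi2. They were 1.45% of control barcodes that passed the limits on genes and mitochondrial UMIs (1.16 to 1.78) and 3.55% of those labelled KO (2.99 to 4.19), a difference of 2.11 percentage points (1.45 to 2.81). Of C1q macrophages they were 3.79% (3.05 to 4.66) and 11.7% (9.9 to 13.7). The larger share lay mostly in members chosen through *Cd163* alone, 49 of 6010 control barcodes and 104 of 3799 labelled KO. Members with a *Lyve1* UMI were 38 and 31 of the same barcodes. *Cd163* was also found in a larger share of comparison macrophages labelled KO than of control ones, as given above. At dpi4 the same rule found 106 control barcodes, 2.45%, and 87 labelled KO, 2.46%, a difference of 0.0105 points (-0.691 to 0.728). With other limits the difference at dpi2 stayed above 0 but moved in size, to 1.38 points (0.71 to 2.13) among the barcodes with at least 5000 UMIs after thinning to that number and 0.328 points (0.126 to 0.588) among cells without *Ly6c2*, *Vcan* and *Chil3* UMIs. The interval reached below 0 where at least 1 UMI of both *Lyve1* and *Cd163* was asked for, at 0.199 points (-0.103 to 0.541) from 26 and 24 cells, and where *Folr2*, *Cbr2*, *F13a1*, *Timd4* and *Cd209f* took their place, at 1.62 points (-0.0726 to 3.33). A share of barcodes rests on the other cells of the library as well as on the members.

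The library label was first checked in the members themselves. *Lyz2*, whose promoter drives the Cre, had 6508 CPM in control members and 10.1 CPM in members labelled KO. *Lyz1*, its near-identical neighbour, had 24.8 and 455 CPM, and reads may be divided between the pair, so both values are uncertain. *Bach1* itself had 144 CPM (128 to 161) and 155 CPM (143 to 167), 1.08-fold (0.937 to 1.24), so its transcript count did not fall with the label. The counts are per gene and cannot show whether the floxed part was missing. Of 7999 genes with at least 50 UMIs in the members, 214 were higher in those labelled KO, 2.68%, and 185 lower, 2.31%. In the comparison macrophages 211 of 10850 genes were higher, 1.94%, and 222 lower, 2.05%.

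Heme, iron and glutathione genes led the genes that were higher with the KO label, with *Slc40a1*, *Slc7a11*, *Hmox1* and *Spic* in the first places by the interval bound nearest to 1. *Hmox1*, heme oxygenase, which opens the heme ring and frees its iron, had 601 CPM (568 to 635) in control members and 11908 CPM (11806 to 12011) in members labelled KO, 19.8-fold (18.7 to 21.0), beside 15.0-fold in comparison macrophages. Each member labelled KO held *Hmox1* UMIs, and the middle of the cells lay at 37.9 to 187 UMIs per 10000 (quartiles) against 2.21 to 6.23 in control members, so the quartile ranges did not overlap. In T or NK marker barcodes *Hmox1* had 14.9 and 209 CPM, in 6.85% and 70.8% of cells, and how much of this was free RNA was not tested. *Slc40a1*, the iron exporter ferroportin, had 2 and 313 UMIs, 73.9-fold (20.3 to 613), but only 25.9% of members labelled KO held any. Its log2 ratio of 6.21 went down to 3.36 after thinning, 2.54 in members without *Ly6c2* and *Plac8* UMIs and 0.75, from 23 UMIs, in the 4 and 15 members without *Ly6c2*, *Vcan* and *Chil3* UMIs. *Spic*, a transcription factor of iron-recycling macrophages, had 2 and 241 UMIs, 56.9-fold (15.6 to 473), in 48.1% of members labelled KO. *Slc7a11*, which imports cystine for glutathione, had 3 and 371 UMIs, 58.4-fold (19.8 to 285), beside 4.26-fold in comparison macrophages, where the control level was 45.9 CPM. Neither *Slc40a1* nor *Spic* had a UMI in the T or NK marker barcodes labelled KO.

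The rest of the iron and redox list moved less. *Gclm*, the modifier subunit of glutamate-cysteine ligase, at the first step to glutathione, had 35.5 and 148 CPM, 4.16-fold (3.26 to 5.38), beside 4.11-fold. *Slc48a1*, which carries heme out of the lysosome, had 103 and 506 CPM, 4.93-fold, and *Fth1*, the ferritin heavy chain, 9101 and 23726 CPM, 2.61-fold. *Ftl1*, the ferritin light chain, was only 1.38-fold higher, and *Blvrb*, a biliverdin reductase, was at 0.759-fold in members and 1.28-fold in comparison macrophages. Of the 26 genes on the list 22 had at least 50 UMIs, and 9 passed the size rule upward, *Hmox1*, *Slc40a1*, *Spic*, *Gclm*, *Gclc*, *Fth1*, *Slc7a11*, *Slc48a1* and *Gsr*, and none downward, against 2.68% and 2.31% of all genes. The median log2 ratio was 0.87 in members and 0.79 in comparison macrophages, and -0.03 and -0.00 over all genes. In members with 10 or more *Lyve1* and *Cd163* UMIs *Hmox1* had a log2 ratio of 4.18 and *Slc40a1* of 5.72, so the direction was the same in the cells farthest from the limit.

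The promoter of *Gclm* is shown because an antioxidant-type motif lies in it, the kind at which BACH1 and the activator NRF2 bind with small MAF proteins. Promoters were taken from RefSeq on GRCm38.p6, from 250 bases before to 50 bases after the start, and the bases before the start are printed 5′ to 3′ with the motif in capitals. TGACNNNGC, searched on both strands, was in 10 of 26 promoters of 20 matched genes of the iron and redox list, 38.5%, and in 12.4% of 32851 promoters. TGAGTCA, which can overlap it, was in 5 of the 26, 19.2%, against 5.2%. Other lists held them too: TGACNNNGC was in 23.8% of the promoters of the interferon list described next and 15.2% of those of the resident list, and TGAGTCA in 14.3% and 12.1%. The iron and redox genes with TGACNNNGC were *Blvra*, *Gclm*, *Lrp1*, *Mafg*, *Me1*, *Nfe2l2*, *Pir*, *Prdx1*, *Srxn1* and *Txnrd1*. Of these only *Gclm* passed the size rule between the libraries in members. The promoter set held no entry for *Hmox1* or *Slc40a1*. The *Gclm* promoter lies at chr3:122245307-122245556 on the plus strand and its match starts 134 bases before the start of the gene. A match is a string of letters and no measured binding.
Gclm: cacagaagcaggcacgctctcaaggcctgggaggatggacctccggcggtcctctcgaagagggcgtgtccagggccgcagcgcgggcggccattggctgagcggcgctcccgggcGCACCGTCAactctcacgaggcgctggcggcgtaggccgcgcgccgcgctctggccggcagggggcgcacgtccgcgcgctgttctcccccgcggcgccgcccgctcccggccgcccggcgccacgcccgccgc

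Interferon-stimulated genes were lower in members labelled KO than in control members. All 22 genes on the list had a log2 ratio under 0, and 18 passed the size rule downward, against 2.31% of all genes, with a median of -1.80. In comparison macrophages 18 also passed it, against 2.05% of all genes, with a median of -1.28. *Ifit1*, a sensor of viral RNA caps, had 198 CPM (179 to 218) in control members and 24.1 CPM (19.7 to 29.2) in members labelled KO, 0.122-fold (0.0976 to 0.152), beside 0.342-fold. *Rsad2*, the antiviral enzyme viperin, had 323 and 47.4 CPM, 0.147-fold, beside 0.375-fold, but 26.5% of its control UMIs came from 1 cell. *Isg15*, a ubiquitin-like modifier, had 266 and 76.1 CPM, 0.286-fold, and *Ifit3* 168 and 23.0 CPM, 0.137-fold. In the 4 control members and 15 labelled KO without *Ly6c2*, *Vcan* and *Chil3* UMIs *Ifit3* was on the other side of 0, at a log2 ratio of 0.53 from 10 UMIs, while the list median was -0.99. Cells with an *Ifit1* UMI were 60.9% and 24.4% of members. These levels belong to part of the cells in either library.

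The regulator *Irf7* had 236 and 62.1 CPM, 0.263-fold. *Cxcl10*, a lymphocyte attractant induced by interferon, had 207 and 31.5 CPM, 0.152-fold, with 24.2% and 20.4% of its UMIs in 1 cell. *Iigp1*, a guanosine triphosphatase induced by interferon gamma, had 87 and 2 UMIs, 0.0109-fold (0.0013 to 0.0404), and 39.1% of the control UMIs were in 1 cell. *Ly6a*, a surface antigen induced by interferon, had 148 and 25.1 CPM, and *Cmpk2*, a nucleotide kinase that lies next to *Rsad2*, 80.3 and 12.4 CPM. In the 8 control members and 48 labelled KO without *Ly6c2* and *Plac8* UMIs, a set chosen after seeing the data, the list median was -1.96, while *Cxcl10* was on the other side of 0, at a log2 ratio of 1.02. The monocyte markers summed to 1402 CPM in control members and 1115 CPM in those labelled KO, and their part in the interferon result was not tested beyond this.

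The promoters of *Ifit1*, *Rsad2* and *Isg15* are printed because the interferon motif, a pair of GAAA blocks with any 2 bases between them to which interferon-activated factors bind, was more frequent over the list: it was in 10 of 21 promoters of 16 matched genes, 47.6%, against 1131 of 32851 promoters, 3.44%. It was in 0 of 26 promoters of the iron and redox list and 0 of 33 of the resident list. Both strands were searched and capitals mark the matches. The *Ifit1* promoter is at chr19:34640639-34640888 on the plus strand, with 2 matches that start 104 and 85 bases before the start. The *Rsad2* promoter is at chr12:26456453-26456702 on the minus strand, with 1 match 120 bases before the start, and that of *Isg15* at chr4:156200819-156201068 on the minus strand, with 3 overlapping matches between 78 and 66 bases before it.
Ifit1: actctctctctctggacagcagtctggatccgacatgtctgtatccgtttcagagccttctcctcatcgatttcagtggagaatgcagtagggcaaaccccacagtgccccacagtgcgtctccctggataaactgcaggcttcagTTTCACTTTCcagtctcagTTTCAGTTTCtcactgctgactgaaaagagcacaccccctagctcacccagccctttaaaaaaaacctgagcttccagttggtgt
Rsad2: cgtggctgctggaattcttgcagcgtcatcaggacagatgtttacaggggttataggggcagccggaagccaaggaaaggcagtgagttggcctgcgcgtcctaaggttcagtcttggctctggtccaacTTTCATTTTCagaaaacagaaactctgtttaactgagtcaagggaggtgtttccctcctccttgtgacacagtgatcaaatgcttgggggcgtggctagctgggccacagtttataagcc
Isg15: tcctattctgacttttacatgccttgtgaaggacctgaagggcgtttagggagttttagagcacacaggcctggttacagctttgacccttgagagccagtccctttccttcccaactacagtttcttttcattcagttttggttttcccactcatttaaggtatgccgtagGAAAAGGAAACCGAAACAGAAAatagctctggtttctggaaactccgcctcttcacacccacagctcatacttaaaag

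Inflammatory genes were higher in members labelled KO. Of 22 listed genes 11 passed the size rule upward, *Il1b*, *Il1a*, *Ptgs2*, *Nlrp3*, *Cd14*, *Tnfaip3*, *Trem1*, *Osm*, *Clec4e*, *Irg1* and *Il1rn*, and none downward, against 2.68% and 2.31% of all genes, with a median of 1.52. In comparison macrophages 9 passed it upward, against 1.94% of all genes, with a median of 0.92. *Il1b* had 91.0 CPM (78.4 to 105) in control members and 565 CPM (543 to 588) in members labelled KO, 6.21-fold (5.35 to 7.25), beside 462 and 1223 CPM, 2.64-fold, in comparison macrophages. In T or NK marker barcodes it had 47.6 and 86.6 CPM. A single control member held 38.5% of the *Il1b* UMIs of the control members. Without each library's highest cell the members had 56 and 517 CPM of *Il1b*, in the same direction. *Ptgs2*, the cyclooxygenase that makes prostaglandins on demand, had 48.2 and 318 CPM, 6.61-fold, beside 2.64-fold. *Cd14*, a receptor for bacterial lipopolysaccharide, had 139 and 473 CPM, 3.41-fold. *Tnf* was 1.28-fold higher and *Il10*, an anti-inflammatory cytokine, 1.01-fold (0.793 to 1.30).

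Neutrophil attractants went with them. *Cxcl2* had 1360 and 3774 CPM, 2.77-fold, beside 1.81-fold, and *Cxcl1* 74.0 and 178 CPM, 2.41-fold. *Cxcl3* had 6 and 296 UMIs, 23.3-fold (10.6 to 64), with 29.4% of the latter in 1 cell. Of the monocyte attractants only *Ccl12* passed the size rule downward, with 1046 and 405 CPM, 0.387-fold. *Ccl8*, with 1140 and 611 CPM, 0.536-fold, *Ccl7*, with 2609 and 1544 CPM, and *Ccl2*, with 2919 and 2046 CPM, did not pass it. *Ccl8* had 892 and 884 CPM in the members with a *Lyve1* UMI and 1327 and 511 CPM in those without, sets chosen after seeing the data, and its log2 ratio of -0.90 ranged from -1.38 to 1.28 over 17 other settings. Of 26 chemokines and receptors 3 passed the size rule upward and 2 downward, against 2.68% and 2.31% of all genes. Neutrophil marker UMIs moved with the label in the same direction as the inflammatory genes, as given above. In the 59 control members and 24 labelled KO with fewer than 2 neutrophil marker UMIs, a set chosen after seeing the data, the list median was 1.34 and *Il1b* had a log2 ratio of 2.80. In the 8 and 48 members without *Ly6c2* and *Plac8* UMIs the median was 0.37 and *Il1b* was at -0.19, so its direction did not hold among these few control cells, and the part of monocyte RNA or monocyte-derived cells in the result was not tested.

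**Figure D4:**
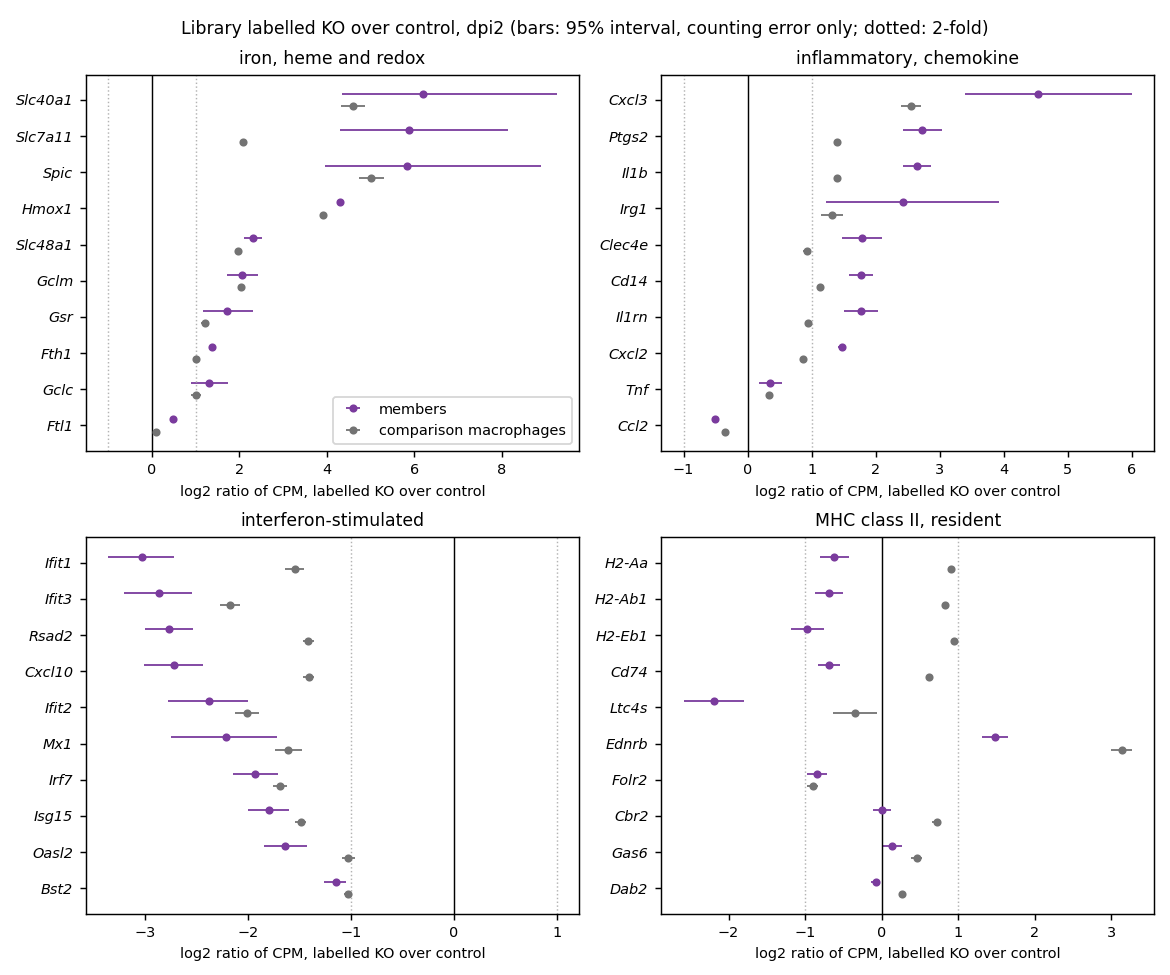
Log2 ratio of the library labelled KO over control (horizontal axis) in members (purple) and comparison macrophages (grey) for 10 genes each of iron, heme and redox function, inflammation and chemokines, the interferon response, and antigen presentation with resident markers; bars are 95% counting intervals. *Hmox1* lies near 4 in both groups, the interferon genes lie left of 0 in both, and *H2-Aa* and *Cd74* lie on opposite sides of 0.

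Some genes for repair and vessel growth were higher in members labelled KO. *Jag1*, a Notch ligand, had 13.1 and 122 CPM, 9.31-fold (6.33 to 14.3), beside 46.8 and 115 CPM, 2.45-fold, so it was low in the control members in particular. *Ppbp*, a chemokine precursor known from platelets, had 21.4 and 212 CPM, 9.91-fold, beside 9.45-fold, while the platelet and erythroid markers summed to 0.973 and 0.690 CPM. *Igf1*, a growth factor for muscle precursors, had 125 and 288 CPM, 2.31-fold (2.02 to 2.66), beside 1.41-fold. *Vegfa* had 2 and 103 UMIs and *Areg* 1 and 182, with 47.6% and 49.5% of the latter in 1 cell. Of 25 growth and repair factors 5 passed the size rule upward, *Igf1*, *Vegfa*, *Pdgfa*, *Areg* and *Osm*, and none downward, against 2.68% and 2.31% of all genes. The median was 0.28.

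Of the 31 resident genes with at least 50 UMIs, *Gja1*, *Cd209f* and *Gstm1* passed the size rule upward between the libraries and *Ltc4s* downward, against 2.68% and 2.31% of all genes, with a median of 0.25. In comparison macrophages 10 passed it upward and 1 downward, against 1.94% and 2.05%, with a median of 0.68. *Gja1* was 2.34-fold higher (1.97 to 2.80) in members. *Ltc4s* had 83.7 and 18.4 CPM, 0.22-fold (0.166 to 0.288), beside 8.41 and 6.59 CPM. *Cbr2*, a carbonyl reductase, had 425 and 424 CPM, and *Folr2* 437 and 242 CPM, 0.553-fold, beside 0.537-fold. *Cd209f*, a lectin, had 0 and 79 UMIs, 78 of them in 1 cell, and *Marco*, a scavenger receptor, 0 and 122, of which 119 were in 1 cell. That cell held 49592 UMIs, 26 of *Cd163* and none of *Lyve1*. The *Cd209f* and *Marco* differences are thus differences of single cells.

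Monocyte genes divided. *Vcan*, a matrix proteoglycan, *Fn1*, *Hp*, *F10*, *Thbs1*, *Clec4d*, *Clec4e* and *Itgal* passed the size rule upward and *Ly6c2*, *Plac8* and *Ms4a4c* downward, of 14 with at least 50 UMIs, against 2.68% and 2.31% of all genes. *Vcan* had 40.9 and 117 CPM, 2.86-fold, and *Ly6c2* 143 and 68.1 CPM, 0.476-fold. In the members with a *Lyve1* UMI, however, *Ly6c2* had 48.7 and 51.7 CPM, a log2 ratio of 0.08 (-0.50 to 0.68), and in those with 10 or more *Lyve1* and *Cd163* UMIs it was at 0.15 (-0.57 to 0.92). Cell cycle genes were lower in members labelled KO: of 9 with at least 50 UMIs 6 passed the size rule downward, *Mcm2*, *Mcm6*, *Ccnb2*, *Cdk1*, *Birc5* and *Stmn1*, and none upward, against 2.31% and 2.68% of all genes, with a median of -1.27. In comparison macrophages 5 of 14 also passed it downward and none upward, against 2.05% and 1.94% of all genes, with a median of -0.67. In members with a *Lyve1* UMI, a set chosen after seeing the data, *Mcm2* was at -0.38 (-0.85 to 0.09) and *Mcm5* at 0.12 (-0.35 to 0.60), and in those without one at -1.37 and -1.44. The list median turned to 0.11 in the 8 and 48 members without *Ly6c2* and *Plac8* UMIs. *Birc5*, which attaches chromosomes to the spindle, had 60 and 10 UMIs, from 12 of 87 and 7 of 135 cells, and *Cdca3*, a regulator of entry into mitosis, 47 and 6. A single control cell held 23.4% of the *Cdca3* UMIs. Of 28 transcription factors *Spic*, *Nr4a1*, *Id3*, *Cebpa*, *Tfec*, *Bhlhe40* and *Ppard* passed upward, against 2.68% of all genes. *Cebpa*, a myeloid lineage factor, had 57.4 and 126 CPM.

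None of the MHC class II genes, which present peptides to T cells, passed the size rule between the libraries. There were 6 with at least 50 UMIs in members, where 2.68% and 2.31% of all genes passed it, and 7 in comparison macrophages, where 1.94% and 2.05% did. Still *H2-Aa*, *H2-Ab1*, *H2-Eb1* and *Cd74* lay on opposite sides of 1 in the 2 groups. Of the 6 in members, 2 were above 1. *H2-Aa* had 188 CPM in control members and 122 CPM in those labelled KO, 0.65-fold (0.569 to 0.742), beside 261 and 489 CPM, 1.87-fold. *H2-Ab1*, *H2-Eb1* and *Cd74* were at 0.620-fold, 0.510-fold and 0.621-fold in members. In each library the same single cell was the highest for all 4 genes. Without each gene's highest cell *H2-Aa* had 109 and 69 CPM, *H2-Ab1* 107 and 61.4 CPM, *H2-Eb1* 91 and 48.5 CPM and *Cd74* 188 and 122 CPM, so the levels were lower and the direction was the same. The control cell, with 25169 UMIs, held 164 of 387 *H2-Aa* UMIs and 333 of 720 *Cd74* UMIs, as well as 7 of the 8 UMIs of the dendritic cell gene *Cd209a*. The cell labelled KO, with 47140 UMIs, held 232 of 532 *H2-Aa* UMIs and 416 of 946 *Cd74* UMIs. Both cells held 2 *Cd163* UMIs and no *Lyve1* UMI, which is the rule's limit. In members with 10 or more *Lyve1* and *Cd163* UMIs the direction was the other one, at 22.4 and 66.2 CPM of *H2-Aa*, a log2 ratio of 1.56 (0.81 to 2.41), and at 56.1 and 135 CPM of *Cd74*. In members with a *Lyve1* UMI, a set chosen after seeing the data, it was not: *Cd74* had 56.6 and 28.4 CPM, 0.502-fold, with a log2 interval of -1.68 to -0.33, and the log2 ratio was -0.32 for *H2-Aa*, -0.47 for *H2-Ab1* and -0.62 for *H2-Eb1*, from 12 to 20 UMIs a library and with intervals that include 0. The list median of -0.66 ranged from -1.14 to 1.86 over 16 other settings.

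Whether the library difference in members differed in size from that in comparison macrophages was put as a ratio of the 2 ratios, with an interval from the 4 counts. Among 431 genes past the size rule in either group and with at least 50 UMIs in both, the interval lay above 1 for 134, 31.1%, and below 1 for 146, 33.9%. These genes were chosen by their ratios in the same counts, and a choice on 1 group's ratio favours unequal ratios. The shares thus describe the chosen genes and were not taken over all genes. No gene passed the size rule in opposite directions in the 2 groups. Ranked by the interval bound nearest to 0, the log2 ratio of ratios was highest for *Slc7a11* at 3.78 (2.14 to 5.42), *Areg*, *Slpi*, a protease inhibitor, at 2.77 (1.68 to 3.87), *Vegfa* and *Jag1* at 1.92 (1.36 to 2.49). *Slpi* had 3.41 and 43.2 CPM in members and 41.3 and 76.6 CPM in comparison macrophages, so that the control members were the low group, as for *Jag1* and *Slc7a11*. By the same bound it was lowest for *Iigp1* at -4.33 (-6.42 to -2.23), *Ednrb* at -1.66 (-1.87 to -1.44), *Ltc4s* at -1.83 (-2.31 to -1.36), *Ifit1* at -1.48 (-1.81 to -1.16) and *Rsad2* at -1.35 (-1.59 to -1.12). For *Ednrb* the gene was higher with the KO label in both groups, 2.78-fold in members and 8.78-fold in comparison macrophages.

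**Figure D5:**
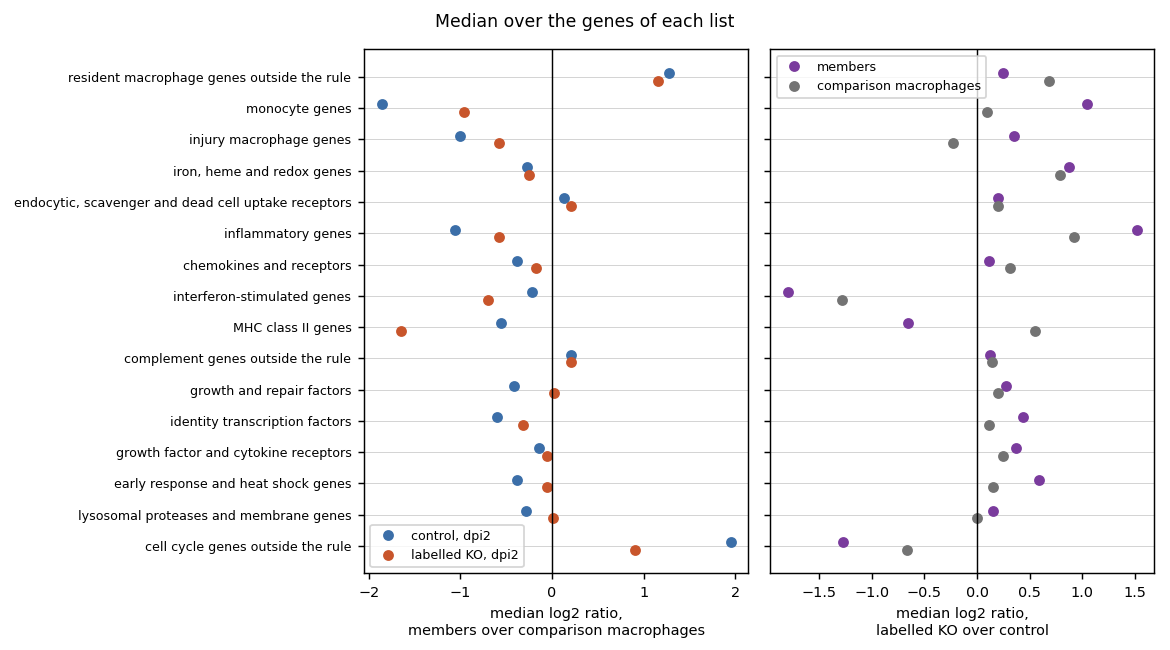
Median log2 ratio over the genes with at least 20 UMIs of 16 gene lists (vertical axis); at left members over comparison macrophages in each library, at right the library labelled KO over control in members and in comparison macrophages. Resident genes lie at 1.27 and 1.16 at left, and at right interferon genes lie at -1.80 and -1.28 and inflammatory genes at 1.52 and 0.92.

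Of 19 lysosomal protease and membrane genes and 21 growth factor and cytokine receptors none passed the size rule between the libraries, beside 2.68% and 2.31% of all genes, with medians of 0.15 and 0.37. None passed it against comparison macrophages in both libraries, beside 1.28% and 1.42%. In the control library alone *Il4ra* and *Il21r*, interleukin receptors, passed it upward in members, against 4.61% of all genes, and *Tgfbr1*, a receptor for TGF-beta, downward, against 4.07%. Early response genes, which also answer to handling, had a median of 0.59, with *Fosb*, *Junb* and *Nr4a1* upward and the heat shock gene *Hspa1b* downward, of 19, against 2.68% and 2.31% of all genes. *Fosb* had 211 and 467 CPM. Of 13 complement genes *C3*, the central component, and *C4b* passed upward, against 2.68%, and *C3* had 11 and 96 UMIs.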

How the data were processed

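The data were 10x Genomics single-cell RNA libraries of CD45+ cells from injured muscle, of which the control library and the library labelled KO at dpi2 were used in full and the pair at dpi4 for the share of cells. The deposited matrices hold UMI counts per gene and barcode, 27998 genes in each, with no barcode under 500 UMIs; per the submitters' processing notes the authors made them with Cell Ranger 6.1.2 on mm10. The dpi2 matrices hold 79250213 and 57010520 UMIs over 6602 and 4177 barcodes, of which 6010 and 3799 passed the limits of 500 genes and 10% mitochondrial UMIs (median 10983 and 11934 UMIs). The study's own doublet removal, cell filter and clusters were not used here, since the matrices carry no annotation of cells.

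The rule for the members was applied to each barcode's raw counts, and summed UMIs were compared with exact Poisson intervals for CPM, exact conditional binomial intervals for ratios, Clopper-Pearson intervals for shares, Newcombe intervals built from these for differences of shares, and a normal approximation on the log scale for the ratio of ratios, all at 95%. A count of 0 was given a limit of 3 counts. Python 3.11.15 was used with numpy 2.4.6, scipy 1.17.1, pandas 2.3.3, scanpy 1.11.5 and matplotlib 3.10.9, and the scoring was tested on simulated data. The members, the 16 gene lists (312 genes) and the markers were chosen with earlier results of these data known. Named genes were those of the lists and markers, the 10 highest and 10 lowest between libraries and against comparison macrophages by the interval bound nearest to 1, up to 5 each way by ratio of ratios, and *Lyz1*, *Lyz2* and *Bach1*. The genes of opposite sign in the closing section were chosen after their values were seen. T or NK marker barcodes were those with 2 or more UMIs of *Cd3d*, *Cd3e*, *Cd3g*, *Ncr1* and *Klrb1c*, fewer than 2 of *Ly6c2*, *Vcan* and *Chil3*, and little C1q. *Trbc1* matched no gene of the tables. Some genes of the lists are not reported here by name. Doublets were left in; Scrublet's own threshold called 1 barcode in each library, which is no working call, so its highest scores were removed as an alternative. Promoters came from the RefSeq table on GRCm38.p6.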

Additional observations from a re-analysis of the deposited data

Results flagged for a closer look

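The log2 ratio of members over comparison macrophages had opposite signs in the libraries, with both counting intervals on their own side of 0, for *Hdac8*, *Lrba*, *Klrd1* and *Haus1*. *Hdac8* was at 1.08 in the control library and -1.33 in the library labelled KO, from 13 and 7 UMIs in the members. *Lrba* was at -1.36 and 1.15, from 5 and 54 UMIs. *Klrd1*, a receptor of NK cells, was at 2.54 and -1.70, and 40 of its 41 control UMIs lay in 1 member. *Haus1* was at 1.26 and -1.39, from 24 and 9 UMIs. The differences between libraries were not tested over mice, as there was 1 library per group.

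The library labelled KO over control was on opposite sides of 1 in members and comparison macrophages for a gene of lipid-laden macrophages and for 4 MHC class II genes, with the interval of the ratio of ratios beyond 2-fold. The log2 ratio of ratios was 1.33 for *Gpnmb* (1.18 to 1.48), which was 1.56-fold in members and 0.623-fold in comparison macrophages. The members' log2 ratio of *Gpnmb*, 0.65, ranged from -0.91 to 2.21 over 17 other settings, below 0 in 3 of them, was 1.80 with and 0.20 without a *Lyve1* UMI, and 20% of the control UMIs were in 1 cell. It was -1.52 for *H2-Ab1*, -1.53 for *H2-Aa*, -1.93 for *H2-Eb1* and -1.31 for *Cd74*. For these 4 genes 1 cell per library held 42.4% to 52.7% of the members' UMIs, and without each gene's highest cell the members' levels were 107 and 61.4 CPM of *H2-Ab1*, 109 and 69 of *H2-Aa*, 91 and 48.5 of *H2-Eb1* and 188 and 122 of *Cd74*, in the same direction. The intervals cover counting error only, so the difference between the groups was not tested beyond it.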

How the results depend on the processing

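The rule's limits set the size of the share difference at dpi2 (2.11 points), which kept its direction at 1.38 after thinning barcodes of at least 5000 UMIs, 0.199 with both *Lyve1* and *Cd163* asked for, 1.32 at under 5% mitochondrial UMIs, 1.37 at 30 C1q UMIs per 10000, 1.36 without members holding other cells' markers and 0.328 without members holding *Ly6c2*, *Vcan* or *Chil3*. Of genes between members labelled KO and control, 214 were higher and 185 lower. Thinning gave 76 and 57, leaving out members with *Ly6c2*, *Vcan* or *Chil3* 105 and 46, a 1.5-fold limit 542 and 507, and 200 UMIs 93 and 80. The lower count alone moved to 87 with both *Lyve1* and *Cd163*, 403 with no minimum of UMIs, and, among alternatives chosen after seeing the data, 94 for members with a *Lyve1* UMI and 100 for members without *Ly6c2* and *Plac8* UMIs. Against comparison macrophages 127 genes were higher and 141 lower in both libraries. At under 5% mitochondrial UMIs these were 81 and 92, with *Folr2*, *Cbr2*, *F13a1*, *Timd4* and *Cd209f* in place of *Lyve1* and *Cd163* 65 and 54, and at 1.5-fold 395 and 334. The higher count was 237 with both *Lyve1* and *Cd163* and 72 at 200 UMIs, and the lower count 74 without members holding *Ly6c2*, *Vcan* or *Chil3*. Thinning, stricter limits and left-out members leave fewer UMIs by construction; apart from that the cause was not tested.

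Of 1970 gene values under other settings, 1032 stayed within the first interval, 849 lay outside it on the same side of 0, 83 outside it on the other side for genes that had not passed the size rule (*H2-Aa*, *H2-Eb1*, *Dab2*, *Ccr2*, *Ccl8* and *Spp1* among them), and 6 of genes past it reversed. *Cd200* reached a log2 ratio of 0.33 over comparison macrophages in the library labelled KO after thinning. Between libraries, *Ly6c2* reached 0.00 with both *Lyve1* and *Cd163* and 0.08 with *Lyve1*, *Ifit3* 0.53 without members holding *Ly6c2*, *Vcan* or *Chil3* (4 control members and 15 labelled KO), and *Cxcl10* 1.02 and *Il1b* -0.19 without *Ly6c2* and *Plac8* UMIs. Of the 16 lists, 11 kept the sign of their median between libraries in all settings; MHC class II genes turned in 4, injury genes in 3, and cell cycle, monocyte and growth factor genes in 1. No paired analysis was possible because each group was 1 library, and for the same reason no library could be left out.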
